A study of Mus musculus with 18 samples.

Results

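Polycomb repressive complex 2 (PRC2) was examined through the RNA of 10 genes: the catalytic subunits Ezh2 and Ezh1, the core subunits Eed and Suz12, the histone-binding subunits Rbbp4 and Rbbp7, and the accessory subunits Mtf2, Phf19, Jarid2 and Aebp2. The genes were taken by symbol from a deposited table of 55450 Ensembl mouse gene identifiers. The rule used no measured value, but the set was proposed with earlier results of these data known. All 10 were in the table, and all 10 were among the 17912 genes with enough counts to be tested.

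PRC2 places methyl groups on a lysine of histone H3 (the mark H3K27me3), which goes with silencing of developmental genes. EZH2 and EZH1 are alternative catalytic subunits that need EED and SUZ12 for activity: EZH2 is the usual form of dividing cells, while EZH1 is kept in resting and differentiated cells. In muscle, EZH2 is known for holding differentiation genes silent in myoblasts, and its level is known to fall as myoblasts fuse.

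C2C12 cells are a mouse myoblast line that forms multinucleated myotubes when serum is reduced, and polyadenylated RNA of 3 such lines was sequenced as myoblasts in growth medium and as myotubes on day 3 in differentiation medium. The control line (px) was a sorted population given the pX458 vector alone, without guide RNAs. The other lines, 2-4 and 2-7, were edited with CRISPR-Cas9 and pairs of guide RNAs at the promoter region of Meg3, a long noncoding RNA gene of the imprinted Dlk1-Dio3 cluster. The labels call 2-4 a Dlk1-Dio3 overexpressor and 2-7 a Dlk1-Dio3 knockout. The 6 groups of line and stage each held 3 libraries, A, B and C. Each edited genotype was 1 clone set against a sorted population, so genotype and clone cannot be told apart. Nothing in the labels says that the 3 libraries of a group came from separate cultures, so p-values measure only the spread between these libraries, which may be technical.

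Libraries held 41544358 to 79140702 counts. Meg3 was at 107 to 149 CPM (counts scaled to the size of the library) in overexpressor myoblasts and at 77.5 to 103 CPM in overexpressor myotubes, and it was at 0 in every control and knockout library, so it does not separate the knockout from the control. All 7 myotube markers examined, among them Myh3, Ckm and Acta1, rose from myoblasts to myotubes in each line. Their summed level was 243 to 372 CPM in control myoblasts but 9170 to 11700 CPM in knockout myoblasts, against 13700 to 14100 CPM in control myotubes. Myotubes of both clones lay above those of the control, at 21000 to 23100 CPM in the overexpressor and 29900 to 35700 CPM in the knockout. Defining markers of adipocytes, endothelial cells and leukocytes summed to less than 1 CPM in every library. Of the 3 neural markers, Tubb3 averaged 45.6 CPM in control myoblasts and 190 CPM in overexpressor myoblasts, with Sox10 at 0 and Elavl3 near 0. In bulk RNA, fewer cells that express a gene and less RNA of it per cell cannot be told apart.

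Per kilobase of exon, the histone-binding subunits stood far above the other PRC2 genes in every group. In control myoblasts the level of Rbbp7 was 92.8 ± 4.04 RPKM (CPM per kilobase of exon; SD, n = 3) and that of Rbbp4 was 46.3 ± 1.06 RPKM. Suz12 (11.4 RPKM), Aebp2 (10.5 RPKM) and Ezh2 (10.0 RPKM) followed with overlapping ranges. Below them came Ezh1 (8.62 RPKM), Phf19 (6.67 RPKM) and Eed (5.82 RPKM), whose ranges did not overlap, and then Mtf2 (2.87 RPKM) and Jarid2 (2.66 RPKM), whose ranges did. In control myotubes the order changed at both ends: Ezh1, at 15.6 ± 1.49 RPKM, took the rank after Rbbp7 and Rbbp4, and Phf19, at 0.900 ± 0.217 RPKM, became the lowest of the 10. In knockout myotubes Mtf2 (1.40 ± 0.442 RPKM) was lowest, with a range that overlapped that of Jarid2 (1.47 ± 0.107 RPKM). These orders hold for summed exon length only, and ranks between genes can change with the length used. Rbbp4 has 8744 exon bases but 1275 coding bases, against 2909 and 1439 for Rbbp7. Ezh1 has 7440 and 2327, against 9851 and 1557 for Aebp2. The order by coding or transcript length was not examined.

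**Figure D1:**
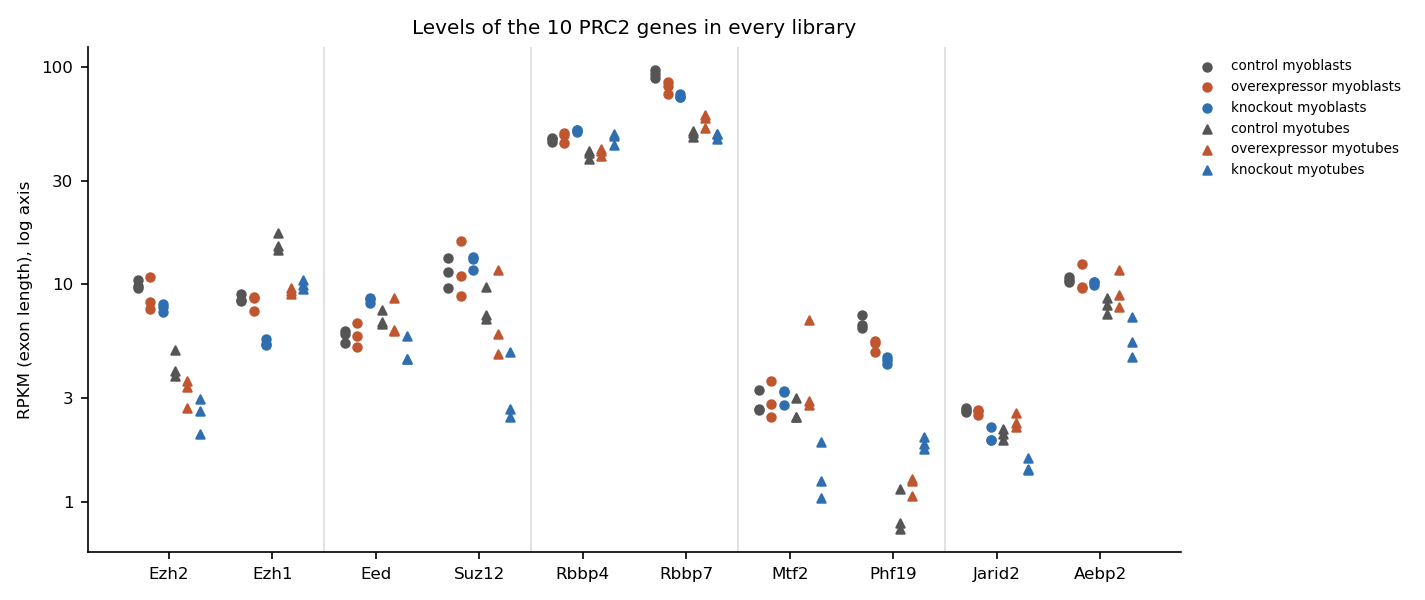
Level of each PRC2 gene in all 18 libraries, in RPKM on a log axis, with genes grouped by role (catalytic, core, histone-binding, accessory Mtf2 and Phf19, accessory Jarid2 and Aebp2). Rbbp7 and Rbbp4 lie above all others in every group, Phf19 is far lower in myotubes (triangles) than in myoblasts (circles), and 1 overexpressor myotube library stands above the rest for Mtf2.

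Ezh2 (ENSMUSG00000029687, chromosome 6, 47530139 to 47595341, minus strand, GRCm38) fell at differentiation in each line. In control cells it was at 64.5, 66.1 and 70.1 CPM in the myoblast libraries A, B and C and at 26.6, 25.3 and 33.5 CPM in the myotube libraries. In overexpressor cells it was at 55.5, 72.6 and 51.4 CPM in myoblasts and 18.1, 22.5 and 24.01 CPM in myotubes. In knockout cells it was at 52.9, 49.8 and 54.4 CPM in myoblasts and 19.9, 17.5 and 13.7 CPM in myotubes. Every myotube library was below every myoblast library, and among myoblasts overexpressor library B stood above the other libraries of its group and of the control. The log2 fold change from myoblasts to myotubes was -1.23 in the control (SE 0.149, adjusted p = 1.42e-06), -1.47 in the overexpressor (SE 0.150, adjusted p = 1.52e-07) and -1.62 in the knockout (SE 0.151, adjusted p = 8.22e-08). The decline did not differ detectably between lines. Its difference from the control was -0.24 in the overexpressor (95% confidence interval -0.697 to 0.208, adjusted p = 0.394) and -0.39 in the knockout (-0.844 to 0.0658, adjusted p = 0.133).

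Ezh1 (ENSMUSG00000006920, chromosome 11, 101191115 to 101226463, minus strand) rose in the control and in the knockout. The control libraries A, B and C were at 62.3, 67.0 and 63.2 CPM as myoblasts and at 128, 112 and 107 CPM as myotubes. The knockout libraries were at 39.3, 39.6 and 41.8 CPM as myoblasts and at 70.6, 74.2 and 78.2 CPM as myotubes. The overexpressor libraries were at 65.1, 56.1 and 64.3 CPM as myoblasts and at 69.4, 71.5 and 67.4 CPM as myotubes. Control myotubes were thus above all other groups, knockout myoblasts were below all others, and the overexpressor stages lay close together without overlap. The log2 fold change was 0.85 in the control (SE 0.0739, adjusted p = 1.12e-08) and 0.89 in the knockout (SE 0.0744, adjusted p = 1.12e-08), and the value of 0.17 in the overexpressor did not pass the threshold (SE 0.0736, adjusted p = 0.0562). That value passed under 6 of 13 alternatives, DESeq2's test and no filter on low counts among them, and ranged from 0.10 to 0.25 (adjusted p of 0.0104 to 0.254). The lowest of these adjusted p-values came from an alternative chosen after the data were seen (smallest top-20 share left out, below). The overexpressor response was smaller than that of the control by a log2 difference of -0.68 (SE 0.104, adjusted p = 3.62e-05) and smaller than that of the knockout by -0.72 (SE 0.104, adjusted p = 2.66e-05). The knockout response differed from the control response by 0.03 (95% confidence interval -0.193 to 0.261, adjusted p = 0.814).

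The start regions of both genes are shown because their RNAs moved in opposite directions in control and knockout cells. RefSeq start windows of GRCm38.p6, from 250 bases before to 50 bases after a start, were matched for all 10 genes (14 windows) and searched on both strands for the E2F-type letters TTTCCCGC, TTTGGCGC and TTTGCCGC and for the E-box letters CAGCTG and CACCTG. The matches found in these genes did not overlap one another. E2F factors drive genes of DNA replication, and E-boxes are the letters that MyoD and related factors bind. The stretches below are the longest parts of the 250 bases before the start that no annotated exon covers, with matches in capitals, and for Ezh2 also 30 bases around its E2F-type match.
Ezh2, chr6:47595059-47595183, minus strand: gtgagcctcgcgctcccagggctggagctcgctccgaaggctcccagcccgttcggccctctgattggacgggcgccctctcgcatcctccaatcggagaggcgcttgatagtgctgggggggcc
Ezh2, chr6:47595009-47595038, minus strand: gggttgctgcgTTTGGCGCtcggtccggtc
Ezh1, chr11:101226464-101226713, minus strand: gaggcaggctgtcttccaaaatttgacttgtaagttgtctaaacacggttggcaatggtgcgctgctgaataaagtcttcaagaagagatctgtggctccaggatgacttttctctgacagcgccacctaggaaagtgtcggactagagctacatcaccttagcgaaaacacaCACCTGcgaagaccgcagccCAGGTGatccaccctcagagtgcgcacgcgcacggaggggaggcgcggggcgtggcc
Ezh2 held TTTGGCGC just after its start, and these letters were in 0.514% of all 32851 windows. Ezh1 held CACCTG on both strands, 77 and 57 bases before its start, and had no E2F-type match. CACCTG was in 20.2% of all windows. CAGCTG, in 16.3% of all windows, was found for Rbbp7, Jarid2 and Mtf2. A match is a description of letters only, and binding was not measured.

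The ratio of Ezh2 to Ezh1, taken per exon length within each library, was lower in myotubes than in myoblasts of every line. In control myoblasts it was 1.15, 1.10 and 1.23 in libraries A, B and C, and in control myotubes it was 0.232, 0.253 and 0.348. The overexpressor went from 0.9499, 1.44 and 0.890 to 0.291, 0.350 and 0.397, and the knockout from 1.501, 1.40 and 1.45 to 0.314, 0.264 and 0.195. Every myotube library was below every myoblast library, and knockout myoblasts lay above control myoblasts. By exon length, overexpressor myoblast libraries A and C were already below 1. By mean transcript length their log2 ratios were 0.133 and 0.0394, which is above 1. Whether the ratio crossed 1 in every line therefore depends on the length used. The log2 difference between stages was -2.09 for control cells, -1.64 for overexpressor cells and -2.52 for knockout cells. With 3 libraries against 3, an exact two-sided permutation test cannot go below 0.1, which is the value each line gave. Over the 3 lines, with stages exchanged only within a line, the difference was -2.08, a 4.23-fold lower ratio in myotubes (exact two-sided permutation test, p = 0.00025, the smallest that the 8000 arrangements can give).

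**Figure D2:**
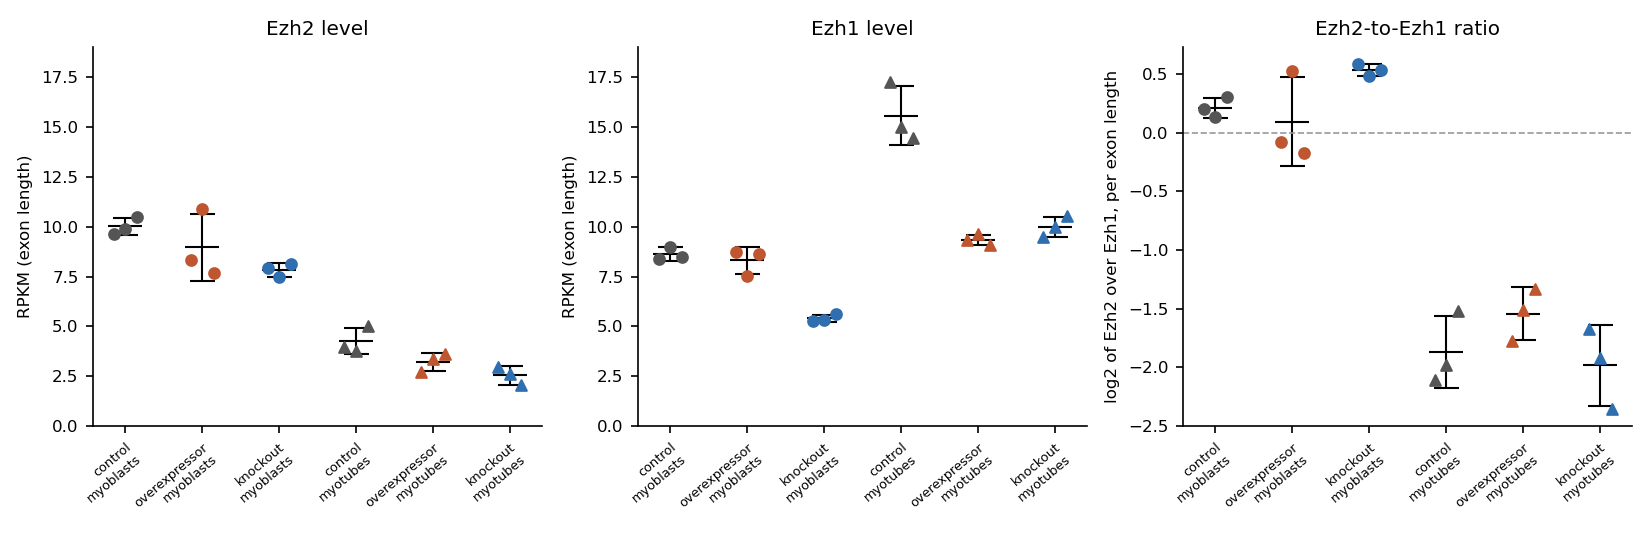
Ezh2 and Ezh1 levels in RPKM and the log2 of their ratio per exon length in each of 18 libraries (circles, myoblasts; triangles, myotubes; bars, mean and SD of 3 libraries). The ratio lies near or above 0 in myoblasts and between -1.33 and -2.36 in myotubes, and Ezh1 is highest in control myotubes.

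The lines differed less in this ratio than the stages did. In myoblasts the ratio at the group mean was 1.16, 1.07 and 1.45 in control, overexpressor and knockout, and in myotubes it was 0.273, 0.343 and 0.253. The 6 differences between lines within a stage had exact permutation p-values of 0.1 to 0.8, in a design that cannot go below 0.1. In knockout myoblasts the higher ratio went with the lower Ezh1: against control myoblasts the log2 fold change of Ezh1 was -0.67 (SE 0.0743, adjusted p = 4.38e-07) and that of Ezh2 was -0.35 (SE 0.146, adjusted p = 0.052). That Ezh2 value fell short under 9 of 13 alternatives and passed as lower under the others, DESeq2's test among them. It ranged from -0.39 to -0.32 over all 13 (adjusted p of 1.12e-06 to 0.142). In overexpressor and knockout myotubes both genes were lower than in control myotubes, Ezh1 by -0.74 and -0.64 (adjusted p = 9.52e-08 and 4.93e-07) and Ezh2 by -0.40 and -0.74 (adjusted p = 0.0274 and 0.000334). The Ezh2 call in overexpressor myotubes was lost under 7 of 13 alternatives (values over all 13 of -0.48 to -0.26, adjusted p up to 0.178). These included leaving out control library C (-0.27, adjusted p = 0.155) or overexpressor library A (-0.29, adjusted p = 0.126), and DESeq2's test (-0.30, adjusted p = 0.0913). Coding lengths in place of exon lengths put the ratio at 1.05, 0.969 and 1.31 in control, overexpressor and knockout myoblasts and at 0.248, 0.311 and 0.229 in the myotubes. Mean transcript lengths put it at 1.34, 1.23 and 1.67 in the myoblasts and at 0.315, 0.397 and 0.292 in the myotubes.

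Across the 10 genes, differentiation lowered more PRC2 transcripts than it raised. In the control 1 gene rose (Ezh1) and 6 fell (Ezh2, Rbbp4, Rbbp7, Jarid2, Phf19 and Aebp2), in a comparison that called 62.8% of all genes tested, 33.9% higher and 28.8% lower. In the overexpressor none rose and 4 fell (Ezh2, Rbbp4, Rbbp7 and Phf19), where 62.8% of all genes were called, 29.8% higher and 33.0% lower. In the knockout 1 rose (Ezh1) and 8 fell, all but Rbbp4, where 65.4% of all genes were called, 29.8% higher and 35.6% lower. The median log2 fold change of the 10 genes was -0.39, -0.19 and -0.80 in control, overexpressor and knockout, and that of all genes tested was 0.07, -0.02 and -0.08. The share called among the 10 is near the background in the control, below it in the overexpressor and above it in the knockout, a difference that was not tested.

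**Figure D3:**
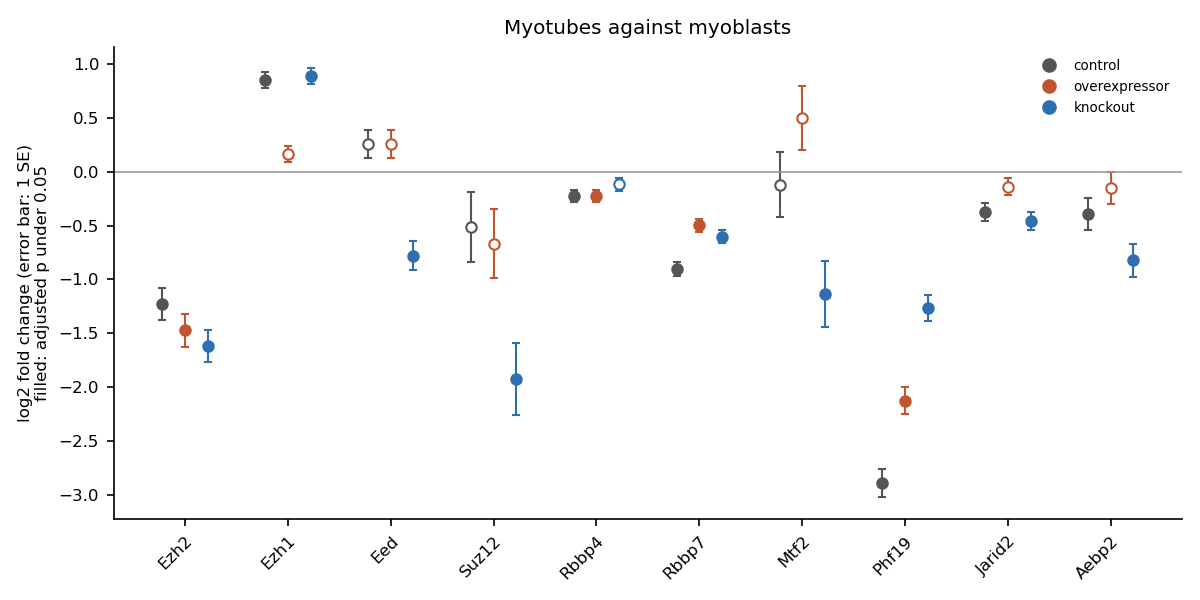
Log2 fold change from myoblasts to myotubes of the 10 PRC2 genes in each line, with 1 SE, filled where the adjusted p is under 0.05. Ezh2, Rbbp7 and Phf19 fell in all lines, Ezh1 rose in control and knockout, and the values of Eed, Suz12 and Mtf2 passed the threshold in the knockout (-0.78, -1.92 and -1.14).

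The core subunits Eed, which reads the mark and stimulates the enzyme, and Suz12, the scaffold of the complex, fell at differentiation in the knockout, and their values in the other lines did not pass the threshold. Eed (ENSMUSG00000030619, chromosome 7, 89954654 to 89980983, minus strand) was at 23.4, 20.6 and 22.8 CPM in control myoblasts and at 25.7, 25.1 and 29.2 CPM in control myotubes. In the knockout it was at 32.9, 33.1 and 31.6 CPM in myoblasts and at 22.2, 17.4 and 17.4 CPM in myotubes. Knockout myoblasts were thus above all control libraries and knockout myotubes below all control myotubes. Overexpressor libraries were at 22.1, 25.4 and 19.7 CPM in myoblasts and at 23.4, 23.6 and 33.2 CPM in myotubes. At differentiation the value was 0.26 in the control (SE 0.131, adjusted p = 0.0942) and 0.26 in the overexpressor (SE 0.131, adjusted p = 0.0974). The overexpressor value fell short under 7 of 13 alternatives and passed as a rise under the others (0.12 to 0.36 over all 13). The log2 fold change of Eed against the control was 0.55 in knockout myoblasts (SE 0.131, adjusted p = 0.0017) and -0.49 in knockout myotubes (SE 0.131, adjusted p = 0.00311). The knockout's response to differentiation, -0.78 (adjusted p = 5.25e-05), differed from that of the control by -1.04 (SE 0.185, adjusted p = 0.000166) and from that of the overexpressor by 1.03 in the opposite sense (overexpressor minus knockout, SE 0.185, adjusted p = 0.000213).

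Suz12 (ENSMUSG00000017548, chromosome 11, 79993106 to 80034123, plus strand) was at 65.8, 47.4 and 56.3 CPM in control myoblasts and at 35.9, 34.5 and 48.2 CPM in control myotubes. Knockout libraries A, B and C were at 66.5, 64.6 and 57.4 CPM as myoblasts and fell to 24.2, 13.2 and 12.2 CPM as myotubes. Overexpressor myoblasts were at 43.9, 78.1 and 54.0 CPM and overexpressor myotubes at 23.8, 29.3 and 57.6 CPM, so the spread within these groups was wide and the stages overlapped. The knockout decline had a log2 value of -1.92 (SE 0.335, adjusted p = 0.000156). The values of -0.51 in the control (SE 0.322, adjusted p = 0.181) and -0.67 in the overexpressor (SE 0.322, adjusted p = 0.085) did not pass. Each fell short under 11 of 13 alternatives and passed as a decline under the others. In myotubes Suz12 was lower in the knockout than in the control by -1.26 (SE 0.331, adjusted p = 0.00372). Its response differed between knockout and control by -1.41 (SE 0.459, adjusted p = 0.0199), with adjusted p-values of 0.0502 to 0.0587 without control myoblast library B, control myotube library C, knockout myotube library B or knockout myotube library C. With no filter on low counts the adjusted p was 0.0534.

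Rbbp4 and Rbbp7, WD-repeat histone chaperones that also serve other chromatin complexes, moved little and strongly, respectively. Rbbp7 (ENSMUSG00000031353, chromosome X, 162760402 to 162779092, plus strand) was at 258, 270 and 282 CPM in control myoblasts and at 145, 139 and 148 CPM in control myotubes. It was at 238, 247 and 217 CPM in overexpressor myoblasts and 153, 170 and 175 CPM in overexpressor myotubes, and knockout cells went from 212, 211 and 218 CPM to 144, 144 and 135 CPM. No myotube library reached a myoblast library, and both clones started below the control. The log2 fold change was -0.91 in the control (SE 0.063, adjusted p = 4.86e-10), -0.50 in the overexpressor (SE 0.0626, adjusted p = 1.38e-06) and -0.60 in the knockout (SE 0.0628, adjusted p = 1.76e-07). Against the control, the decline of the overexpressor was smaller by 0.41 (SE 0.0884, adjusted p = 0.00114) and that of the knockout by 0.30 (SE 0.0884, adjusted p = 0.00887).

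Rbbp4 (ENSMUSG00000057236, chromosome 4, 129307100 to 129335370, minus strand) was at 394, 408 and 412 CPM in control myoblasts and at 352, 357 and 330 CPM in control myotubes. It stayed between 330 and 448 CPM over all 18 libraries, the narrowest range of the 10 genes in relative terms. Its log2 fold change at differentiation was -0.22 in the control (SE 0.0583, adjusted p = 0.00272) and -0.23 in the overexpressor (SE 0.0583, adjusted p = 0.00255), where the call was lost without overexpressor myotube library C (-0.15, adjusted p = 0.0698) and with DESeq2's test (-0.14, adjusted p = 0.0994). In myotubes it was higher in the knockout than in the control by 0.24 (SE 0.0583, adjusted p = 0.00129). Exons of Rbbp4 share 782 bases with Sync on the opposite strand, and Sync ranged from 61.7 CPM in control myoblasts to 190 CPM in overexpressor myotubes. Whether counting used strand is not given in the sources used here, so reads of the 2 genes cannot be told apart there. Shorter overlaps of Rbbp7 with Txlng, Mtf2 with Tmed5, and Ezh2, Eed and Suz12 with noncoding genes carry the same limit.

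Mtf2 and Phf19 are Polycomb-like proteins, which bind unmethylated CpG-rich DNA and define the PRC2.1 form of the complex. Phf19 (ENSMUSG00000026873, chromosome 2, 34893757 to 34914026, minus strand) had the largest differentiation response of the 10 genes in control and overexpressor cells. It was at 32.9, 31.6 and 36.3 CPM in control myoblasts and at 4.05, 5.79 and 3.77 CPM in control myotubes. Overexpressor cells went from 27.6, 24.5 and 26.98 CPM to 6.44, 6.28 and 5.36 CPM, and knockout cells from 22.8, 21.7 and 23.4 CPM to 8.81, 10.0 and 9.28 CPM. The order of the lines was therefore reversed between stages: control myoblasts were above and control myotubes below the knockout, without overlap. The log2 fold change was -2.89 in the control (SE 0.131, adjusted p = 1.07e-12), -2.13 in the overexpressor (SE 0.125, adjusted p = 4.40e-11) and -1.27 in the knockout (SE 0.122, adjusted p = 6.63e-08). Each pair of lines differed in this response, by 0.77 for overexpressor minus control (SE 0.175, adjusted p = 0.00176), 1.62 for knockout minus control (SE 0.175, adjusted p = 5.44e-07) and -0.86 for overexpressor minus knockout (SE 0.172, adjusted p = 0.000577).

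Mtf2 (ENSMUSG00000029267, chromosome 5, 108065674 to 108109004, plus strand) was at 18.7, 15.2 and 15.3 CPM in control myoblasts and at 14.0, 14.0 and 17.1 CPM in control myotubes. Knockout libraries A, B and C were at 18.5, 18.3 and 15.98 CPM as myoblasts and at 10.8, 7.13 and 5.96 CPM as myotubes. Overexpressor myoblasts were at 14.0, 20.6 and 16.1 CPM, and overexpressor myotubes were at 16.5, 15.9 and 39.2 CPM. Knockout myotubes were below all other libraries, and overexpressor myotube library C was above all others. Mtf2 fell in the knockout, with a log2 value of -1.14 (SE 0.308, adjusted p = 0.00485). The values of -0.12 in the control (adjusted p = 0.743) and 0.50 in the overexpressor (adjusted p = 0.162) did not pass, and without library C the overexpressor value was -0.01. Tmed5, which shares 395 exonic bases with Mtf2 on the opposite strand, was at 20.6, 23.6 and 63.4 CPM in overexpressor myotubes and at 11.6, 8.32 and 7.63 CPM in knockout myotubes. It was thus also highest in overexpressor myotube library C, and its part in the Mtf2 values was not tested.

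Jarid2 and Aebp2 define the PRC2.2 form, in which JARID2 helps to recruit and stimulate the enzyme and AEBP2 stabilises the core. Jarid2 (ENSMUSG00000038518, chromosome 13, 44729474 to 44921643, plus strand) was at 25.8, 26.4 and 25.2 CPM in control myoblasts and at 20.04, 18.6 and 21.0 CPM in control myotubes. The knockout was at 18.8, 18.6 and 21.4 CPM in myoblasts and at 15.5, 13.8 and 13.6 CPM in myotubes, below the control in both stages without overlap. Jarid2 fell at differentiation in the control (-0.37, SE 0.0818, adjusted p = 0.000616) and in the knockout (-0.46, SE 0.0825, adjusted p = 0.000105), and the overexpressor value was -0.14 (SE 0.0813, adjusted p = 0.149). It was lower in the knockout than in the control by -0.39 in myoblasts (SE 0.0818, adjusted p = 0.000504) and by -0.48 in myotubes (SE 0.0825, adjusted p = 5.90e-05).

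Aebp2 (ENSMUSG00000030232, chromosome 6, 140622663 to 140678472, plus strand) was at 103, 101 and 107 CPM in control myoblasts and at 78.9, 71.8 and 85.2 CPM in control myotubes. Knockout myoblasts were at 101, 98.0 and 102 CPM and knockout myotubes at 70.1, 53.7 and 45.9 CPM, below every control library. Its decline was -0.82 in the knockout (SE 0.151, adjusted p = 0.000175) and -0.40 in the control (SE 0.150, adjusted p = 0.0304). The control call was lost when any 1 control library other than myotube library C was left out (-0.33 to -0.42, adjusted p of 0.05 to 0.108). It was also lost with no filter on low counts (-0.39, adjusted p = 0.0946). The overexpressor value was -0.16 (SE 0.149, adjusted p = 0.383).

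Summed per exon length, the PRC2.1 accessory genes Mtf2, Phf19 and Phf1 and the PRC2.2 accessory genes Jarid2 and Aebp2 changed by different amounts in each line. The PRC2.1 sum went from 19.8 ± 0.82 to 11.6 ± 0.033 RPKM in the control and from 15.4 ± 0.40 to 12.7 ± 0.41 RPKM in the knockout (SD, n = 3). The PRC2.2 sum went from 13.2 ± 0.26 to 10.0 ± 0.80 RPKM in the control and from 12.2 ± 0.33 to 7.21 ± 1.4 RPKM in the knockout. In the overexpressor the PRC2.1 sum went from 19.1 ± 0.86 to 14.1 ± 1.6 RPKM and the PRC2.2 sum from 13.2 ± 1.6 to 11.9 ± 2.1 RPKM. The ranges of the stages did not overlap for PRC2.1 in any line. They did overlap for PRC2.2 in the overexpressor. Mtf2 and Phf19 made 2.87 and 6.67 RPKM of the PRC2.1 sum in control myoblasts and 2.64 and 0.900 RPKM in control myotubes. In the knockout they made 3.08 and 4.49 RPKM in myoblasts and 1.40 and 1.86 RPKM in myotubes. The rest was Phf1, which is outside the 10 genes and rose in the knockout (below). Epop, a PRC2.1 cofactor also outside the 10 genes (below), was not in the sum. The size of the change in each line depends on which genes are summed. Aebp2 made 10.5 RPKM of the PRC2.2 sum in control myoblasts and 5.74 RPKM in knockout myotubes.

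As myoblasts, the overexpressor differed from the control in few of these genes. Of the 10, none was higher and 2 were lower, Rbbp7 (-0.20, SE 0.0625, adjusted p = 0.0135) and Phf19 (-0.35, SE 0.119, adjusted p = 0.0251), in a comparison that called 40.4% of all genes, 20.7% higher and 19.7% lower. The Rbbp7 call was lost without control library C (adjusted p = 0.0661) or overexpressor library C (0.0846), and the Phf19 call without control library C (0.105) or overexpressor library B (0.0884). The other 8 had values between -0.16 and 0.05, of which the widest interval, that of Suz12, ran from -0.644 to 0.753. Knockout myoblasts differed from the control in 5 genes, where 53.0% of all genes were called, 26.4% higher and 26.6% lower. Of the 5, Eed was higher, and Ezh1, Rbbp7 (-0.33, adjusted p = 0.000186), Jarid2 and Phf19 (-0.57, adjusted p = 0.000517) were lower. Between the clones 3 genes were called, where 52.6% of all genes were, 25.7% higher and 26.9% lower. Of the 3, Ezh1 (0.62) and Jarid2 (0.36) were higher and Eed (-0.54) lower in the overexpressor than in the knockout, with adjusted p-values of at most 0.00194. Knockout myoblasts also carried the high myotube marker level given above, and proliferation genes (below) were lower in them. The part of either in the PRC2 values was not tested.

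**Figure D4:**
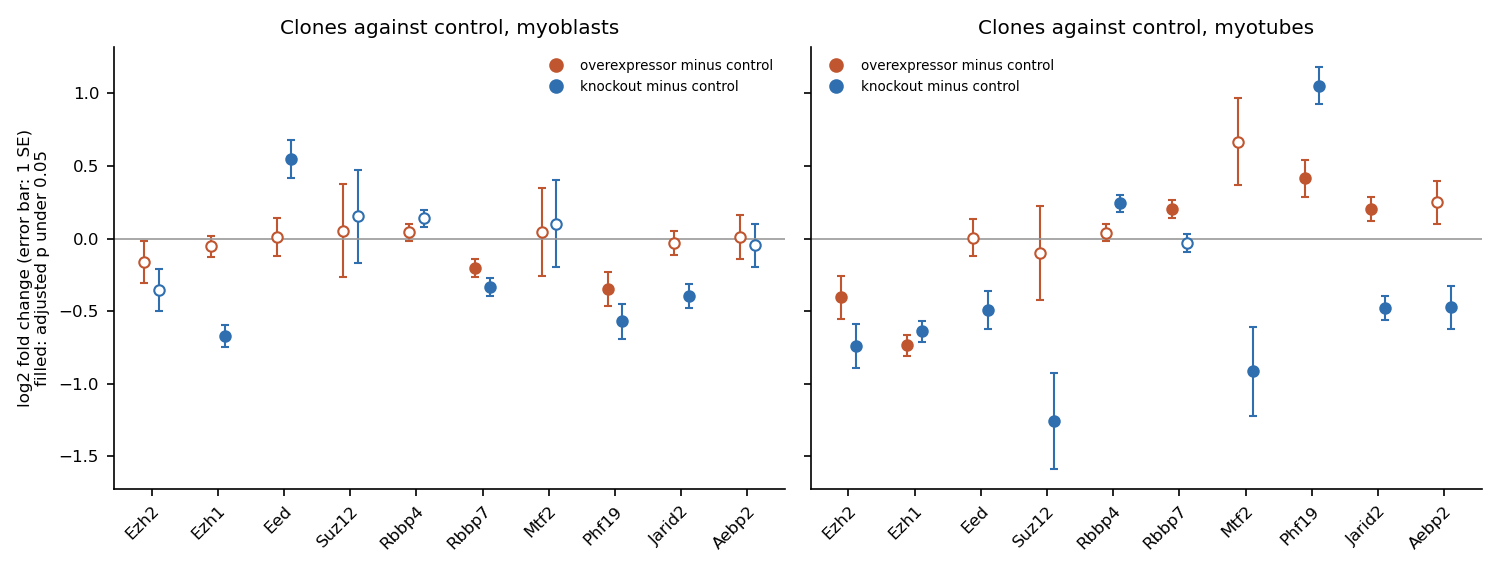
Log2 fold change of the 10 PRC2 genes in each clone against the control line, in myoblasts and in myotubes, with 1 SE, filled where the adjusted p is under 0.05. Knockout myotubes are below the control for 7 genes and above it for Rbbp4 and Phf19, and both clones are below the control for Ezh1 and Ezh2 in myotubes.

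As myotubes, the clones differed from the control and from each other in more genes. In the overexpressor 3 genes were higher than in the control and 2 lower, where 57.1% of all genes were called, 26.2% higher and 30.9% lower. The higher genes were Rbbp7 (0.20, adjusted p = 0.00967), Jarid2 (0.21, adjusted p = 0.039) and Phf19 (0.42, adjusted p = 0.00966), and the lower ones were Ezh1 and Ezh2. The Jarid2 call was lost without control library A (adjusted p = 0.0726) or B (0.153) and with no filter on low counts (0.0959). The Phf19 call was lost without control library A (0.054) or C (0.0672) and with only the groups compared (0.0531). The knockout had 2 genes higher (Rbbp4, and Phf19 by 1.05, adjusted p = 9.65e-07) and 7 lower, where 68.0% of all genes were called, 31.0% higher and 37.0% lower. The 7 were Ezh1, Ezh2, Eed, Suz12, Jarid2, Mtf2 (-0.92, SE 0.308, adjusted p = 0.0166) and Aebp2 (-0.48, SE 0.150, adjusted p = 0.0107). The Mtf2 call was lost without control library C, knockout library B or knockout library C (adjusted p = 0.0558, 0.0569 and 0.0769), and the Aebp2 call without knockout library C (0.0617). The median of the 10 genes was 0.12 in the overexpressor and -0.48 in the knockout, against -0.04 and -0.07 over all genes tested. Myotubes of both clones also had the higher summed level of myotube markers given above. The part of that level in the PRC2 values was not tested.

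Set directly against each other, overexpressor myotubes were higher than knockout myotubes in 6 PRC2 genes and lower in 2, where 59.7% of all genes were called, 30.6% higher and 29.1% lower. Mtf2 (1.58, SE 0.308, adjusted p = 0.000524) and Suz12 (1.16, SE 0.329, adjusted p = 0.00772) had the largest values. Suz12 ranges overlapped, since overexpressor library A (23.8 CPM) was below knockout library A (24.2 CPM). Aebp2 (0.73, adjusted p = 0.000668), Jarid2 (0.68, adjusted p = 1.84e-06), Eed (0.50, adjusted p = 0.00349) and Rbbp7 (0.24, adjusted p = 0.0037) were also higher. Phf19 (-0.64, adjusted p = 0.000282) and Rbbp4 (-0.20, adjusted p = 0.00625) were lower. The Rbbp4 call was lost without overexpressor library C (-0.14, adjusted p = 0.0893), with library totals (-0.10, adjusted p = 0.0973) and with only the groups compared (-0.19, adjusted p = 0.0953). Both catalytic subunits missed the threshold, Ezh1 at -0.10 (95% confidence interval -0.258 to 0.0618) and Ezh2 at 0.34 (0.0121 to 0.662, adjusted p = 0.0615).

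The differentiation response itself was tested between lines. It differed between overexpressor and control for 3 of the 10 genes (Ezh1, Rbbp7 and Phf19), where 39.0% of all genes were called, 16.6% with a positive and 22.3% with a negative difference. It differed between knockout and control for 4 (Eed, Suz12, Rbbp7 and Phf19), where 50.1% were called (20.2% positive and 29.9% negative). It differed between the clones for 7, where 46.7% were called (24.3% positive and 22.4% negative). Overexpressor minus knockout was negative for Ezh1 and Phf19 and positive for Eed, Suz12 (1.25, SE 0.458, adjusted p = 0.0369), Mtf2 (1.64, SE 0.429, adjusted p = 0.00643), Aebp2 (0.67, SE 0.211, adjusted p = 0.0169) and Jarid2 (0.32, SE 0.116, adjusted p = 0.0315). The Suz12 call was lost under 10 of 19 alternatives (values over all 19 of 0.81 to 1.64, adjusted p up to 0.101). Among these were no filter, only the groups compared, and leaving out overexpressor myoblast library A or C, knockout myoblast library A or B, overexpressor myotube library C, or knockout myotube library B or C. The Jarid2 call was lost under 7 of 19 (0.25 to 0.43, adjusted p up to 0.0976): no filter, only the groups compared, and without overexpressor myoblast library A, knockout myoblast library C, overexpressor myotube library C, or knockout myotube library B or C. These 3 comparisons share lines, so their counts are not independent of each other.

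Within groups, several of these transcripts deviated together. After subtraction of the group means, log2 CPM of Suz12 correlated over the 18 libraries with Mtf2 (r = 0.95), Eed (0.93), Aebp2 (0.93) and Rbbp4 (-0.91), given as a description without a test. In overexpressor myotubes, for example, library C lay 0.75 above the group mean for Suz12, 0.85 for Mtf2, 0.33 for Eed and 0.32 for Aebp2, and 0.07 below it for Rbbp4. In each of the 6 groups the library with the highest Suz12 was also the one with the smallest share of counts in its 20 most abundant genes (9.23% in overexpressor myotube library C against 10.6% in A and B). In some groups the gap was small, as in control myoblasts (7.77% in A against 7.78% in B) and control myotubes (11.6% in C against 11.8% in A and B). These points share library depth and composition, and the part of library composition in the deviations was not tested. With that library left out of every group, an alternative chosen after the data were seen and one that also removes the highest Suz12 libraries, 8 rather than 5 of the 10 genes were called between overexpressor and control myotubes, and 7 rather than 4 for the response of the knockout against the control.

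**Figure D5:**
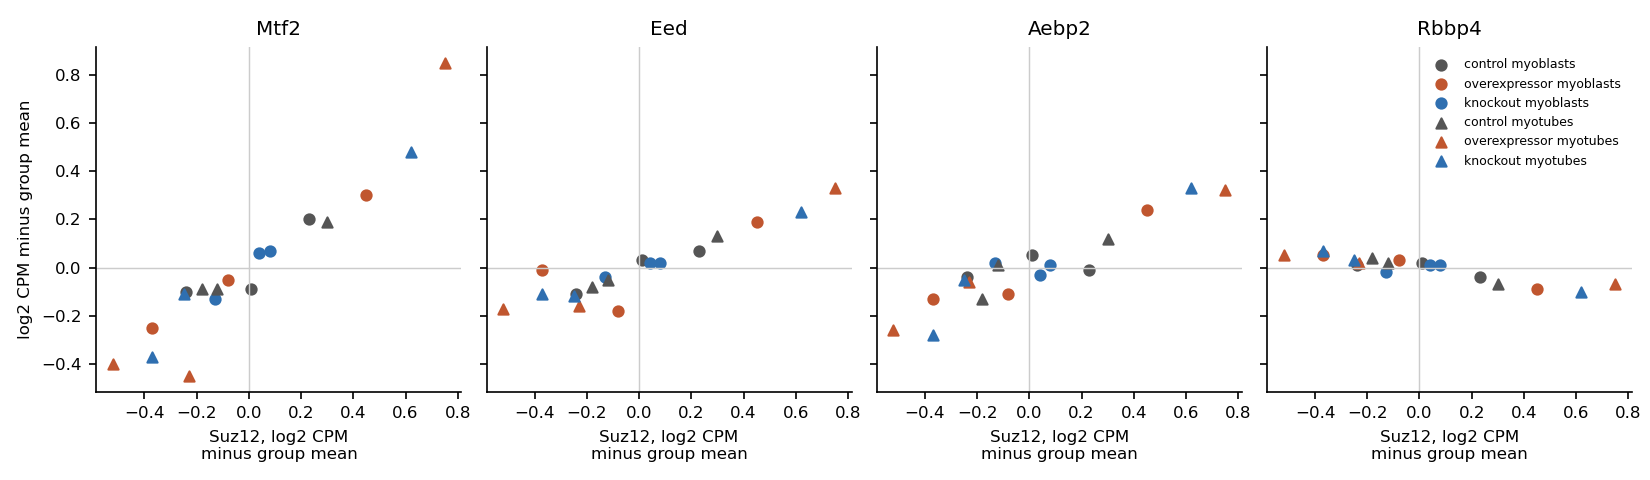
Deviation of Mtf2, Eed, Aebp2 and Rbbp4 from their group means against that of Suz12, in log2 CPM, for 18 libraries in 6 groups (circles, myoblasts; triangles, myotubes). Mtf2, Eed and Aebp2 rise along the Suz12 axis and Rbbp4 declines along it, with overexpressor myotube library C (0.75) and knockout myotube library A (0.62) at the right end.

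The start regions of Suz12 and Phf19 are shown because both held TTTCCCGC, the E2F-type letters found in 1.07% of all windows.
Suz12, chr11:79992856-79993105, plus strand: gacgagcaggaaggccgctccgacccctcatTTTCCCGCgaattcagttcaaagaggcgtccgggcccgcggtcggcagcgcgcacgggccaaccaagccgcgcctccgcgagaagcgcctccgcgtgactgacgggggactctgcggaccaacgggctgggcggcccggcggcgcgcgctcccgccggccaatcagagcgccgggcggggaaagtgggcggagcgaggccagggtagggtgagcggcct
Phf19, chr2:34914027-34914215, minus strand: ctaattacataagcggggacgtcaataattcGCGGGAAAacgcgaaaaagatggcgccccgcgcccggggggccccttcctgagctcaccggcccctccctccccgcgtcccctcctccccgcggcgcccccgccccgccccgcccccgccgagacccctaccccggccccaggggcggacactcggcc
The match of Suz12 starts 219 bases before its RefSeq start, and that of Phf19, which reads GCGGGAAA on the strand of the gene, starts 208 bases before. With Ezh2, 3 of the 14 windows of these genes held 1 of the 3 E2F-type strings, against 1.99% of all windows. The windows with a match were 64.3% (Ezh2), 71% (Suz12) and 74.3% (Phf19) G and C, against a median of 52.7% over all windows. The share over all windows therefore does not come from windows of like base composition. At differentiation Ezh2 and Phf19 fell in all 3 lines and Suz12 in the knockout. Of the genes without such a match, Rbbp7 fell in all 3 lines and Eed, Jarid2, Mtf2 and Aebp2 in the knockout. A link between these letters and the changes in RNA was not tested.

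Proliferation genes moved with several of these transcripts. Of 18 genes of DNA replication and mitosis, among them Mki67, Mcm2 and Cdk1, 17 fell and 1 (E2f2) rose in each line at differentiation. Medians were -3.44, -2.24 and -1.82 in control, overexpressor and knockout, where 28.8%, 33.0% and 35.6% of all genes fell and 33.9%, 29.8% and 29.8% rose. In overexpressor myotubes 14 genes of the list were higher and 0 lower than in the control (median 0.94), where 26.2% of all genes were higher and 30.9% lower. In knockout myotubes 12 were higher and 3 lower (0.84), where 31.0% of all genes were higher and 37.0% lower. In knockout myoblasts 9 were lower and 2 higher (-0.45), where 26.6% of all genes were lower and 26.4% higher. Over the 18 libraries, log2 CPM of Phf19 (r = 0.97), Rbbp7 (0.94) and Ezh2 (0.87) correlated with the mean of the list and Ezh1 did so inversely (-0.75). Rbbp4 (0.70), Aebp2 (0.63), Suz12 (0.62) and Jarid2 (0.54) lay between, and Eed (0.05) and Mtf2 (0.25) barely correlated. With the mean of the myotube markers, r was -0.88 for Rbbp7, -0.86 for Ezh2, -0.78 for Phf19 and 0.22 for Ezh1. The other genes ran from -0.75 (Jarid2) to 0.15 (Eed). These values describe 18 points that fall into 2 stages, and the parts of cell division and of differentiation in the PRC2 levels were not tested.

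The genes whose log2 CPM most resembled that of Ezh2 over the 18 libraries, among 10746 compared, were Tipin, Mtap, Khdrbs1, Cep192 and Rad21 (r of 0.982 to 0.986). For Ezh1 they were Dhrs7, Slc6a8, Cd99l2, Grina and Tbc1d20 (0.945 to 0.959).

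Among 5 other PRC2 partners, 4 could be tested. For this and the next lists, the shares of all genes that rose at differentiation were 33.9%, 29.8% and 29.8% in control, overexpressor and knockout, and the shares that fell were 28.8%, 33.0% and 35.6%. At differentiation none rose and 2 fell in the control, none rose and 2 fell in the overexpressor, and 1 rose and 3 fell in the knockout (median log2 fold changes -0.10, -0.16 and -0.46). Epop, a PRC2.1 cofactor, had means of 18.6, 6.74 and 14.95 CPM in control, overexpressor and knockout myoblasts and 2.31, 4.27 and 10.9 CPM in myotubes. It fell in all 3 lines, by -3.01 in the control (SE 0.132, adjusted p = 6.59e-13), -0.66 in the overexpressor and -0.46 in the knockout. Against control myotubes, Epop was higher by 0.89 in those of the overexpressor (adjusted p = 1.13e-05) and by 2.24 in those of the knockout (adjusted p = 5.22e-11). Phf1, the third Polycomb-like gene, fell in the control (-0.36) and in the overexpressor (-0.32) and rose in the knockout (0.27), with adjusted p-values of at most 0.00612. Ezhip, an inhibitor of PRC2, was at or near 0 in all groups.

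Of 10 demethylases and methyltransferases that oppose PRC2, 9 could be tested. At differentiation 2 rose and 3 fell in the control, 1 rose and 4 fell in the overexpressor, and 1 rose and 7 fell in the knockout (medians -0.15, -0.15 and -0.72). Kdm6b, a demethylase that removes the mark, rose in each line, by 0.99 in the control (adjusted p = 3.04e-10), 0.30 in the overexpressor and 0.30 in the knockout. In myotubes 7 of the 9 were lower in the knockout than in the control and 1 higher, where 37.0% of all genes were lower and 31.0% higher. The largest of these was Nsd1, a methyltransferase of another lysine of histone H3, at -1.85.

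Of the 5 CBX genes, whose proteins read the mark within PRC1, the other Polycomb complex, 4 fell and 1 rose in the control, 4 fell in the overexpressor, and 2 fell and 1 rose in the knockout (medians -0.58, -0.58 and -0.14). Cbx6 averaged 335 CPM in control myoblasts, 198 CPM in overexpressor myoblasts and 132 CPM in knockout myoblasts. Against control myoblasts the log2 fold change of Cbx6 was -0.76 for the overexpressor (adjusted p = 1.58e-07) and -1.34 for the knockout (adjusted p = 5.68e-11), and that of Cbx7 was -0.71 and -1.25. Of 5 genes listed as PRC2 targets in muscle, Cdkn2a was at 0 counts in all libraries. Ckm, Myh4 and Myog rose and Pax7 fell at differentiation in all 3 lines, with Pax7 values of -2.90, -2.90 and -0.52 in control, overexpressor and knockout. In knockout myoblasts Ckm was higher than in the control by 5.55, Myh4 by 5.06 and Myog by 3.46 on the log2 scale. Pax7 was lower there (-1.21, adjusted p = 3.33e-09). Ckm is also among the myotube markers given above, so these values are not separate from the marker level. The part of PRC2 in them was not tested. H3K27me3 was not measured.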

How the data were processed

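The authors deposited raw counts per Ensembl gene for 18 libraries of polyadenylated RNA. Per the submitters' processing notes, which name tools without order, these include STAR 2.7.9a, featureCounts of Subread 2.0.3 and build mm10. Which annotation release was counted, and whether strand was used, is not given in the sources used here. A second deposited table of variance-stabilised values was not used. Tests on the deposited counts came from edgeR 4.0.16, run in R 4.3.3 (TMM factors 0.895 to 1.08, filterByExpr by group, robust quasi-likelihood test) in 1 fit of 6 groups with 12 residual degrees of freedom and 12 contrasts. Adjusted p-values are Benjamini-Hochberg values over all 17912 tested genes, with a threshold of 0.05, and intervals are the estimate with its SE at 95%. CPM and RPKM are TMM-scaled, and RPKM uses summed exon lengths of GENCODE M21 (GRCm38). Ratios of Ezh2 to Ezh1 add a prior of 2 counts. Code was tested on simulated counts.

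The rule for named genes was all 10 PRC2 genes in every comparison, any gene of the other lists beside its list's counts, and the 5 genes most correlated with Ezh2 and with Ezh1 among those that reach a mean of 5 CPM in a group. The members and lists were chosen with earlier results of these data known. Alternatives were DESeq2 1.42.0 (size factors and Wald test), library totals, no filter, a replicate block, only the groups compared, and each library left out. A further alternative, chosen after the data were seen, left out the library with the smallest top-20 share in each group. It is included in the counts of alternatives. Replicates of a group differed beyond counting noise in all 18 pairs. The letters A, B and C did not pair libraries: in none of the 15 pairs of groups did all same-letter deviations correlate above 0.1.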

Additional observations from a re-analysis of the deposited data

Results flagged for a closer look

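The differentiation response, as a log2 fold change, differed between lines past the threshold for the genes below (edgeR's quasi-likelihood test of the difference, adjusted p under 0.05). Overexpressor minus control was -0.683 for Ezh1, 0.408 for Rbbp7 and 0.765 for Phf19. Knockout minus control was -1.04 for Eed, -1.41 for Suz12, 0.302 for Rbbp7 and 1.62 for Phf19. Overexpressor minus knockout was -0.718 for Ezh1, 1.03 for Eed, 1.25 for Suz12, 0.319 for Jarid2, 1.64 for Mtf2, -0.86 for Phf19 and 0.669 for Aebp2. Overexpressor myotube library C, which stood above its group for Mtf2 (39.2 CPM) and Suz12 (57.6 CPM), enters 2 of these 3 comparisons.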

How the results depend on the processing

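Among the recomputed values of PRC2 genes that had passed the threshold, 886 stayed past it in the same direction and 56 fell short of it. Among those that had not passed, 57 passed, 443 did not and 14 changed sign. A further 20 values under 0.1 in size were not followed. With the replicate block, 65 of 66 called values stayed past the threshold, and Suz12 did not for the response of overexpressor minus knockout (1.22, adjusted p = 0.0577), which left 6 of 10 genes called there and 3 in the response of overexpressor minus control. With 1 library left out, 0 to 2 genes were called between overexpressor and control myoblasts and 3 to 6 between their myotubes. In the myotubes 3 were called without a filter and 3 with only the groups compared. Leaving out the library with the smallest top-20 share in each group gave 8 there, 7 for the response of knockout minus control, and a log2 difference of the Ezh2-to-Ezh1 response of 0.74 against 0.45 (overexpressor minus control). The cause of these shifts was not tested.

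Values that changed sign had not passed the threshold. They were Rbbp4 from myoblasts to myotubes in the knockout (0.0086 with DESeq2 size factors, 0.0052 with its Wald test, 0.040 without the libraries of smallest top-20 share). Suz12 between overexpressor and control gave 0.041 in myotubes and 0.024 for the response with library totals. Leaving out single libraries it ranged from -0.473 to 0.135 and from -0.516 to 0.107. Rbbp4 for the response of overexpressor minus knockout gave 0.0094 with library totals. Mtf2 in the overexpressor ranged from -0.012 to 0.727 with 1 library left out, and Ezh2 for the response of overexpressor minus control gave 0.082 without the libraries of smallest top-20 share. Scaling moved the median of all genes, most with library totals in the control (myotubes minus myoblasts, from 0.07 to -0.17), and the knockout went from -0.075 to -0.24 there. With DESeq2 size factors the largest move was from -0.12 to 0.037, for the response of knockout minus control.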
